A study of Mus musculus with 10 samples.

Results

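Lysosomal hydrolases are the enzymes that break down glycans, lipids, proteins and nucleic acids inside lysosomes, and the transcripts of 42 genes for such enzymes and for the proteins that process them were compared between sorted microglia and whole brain tissue. The genes were chosen by name, by the substrate or role of their product, and each matched 1 row of the 56748 genes counted. They comprised 9 genes for glycosaminoglycan degradation, 8 for sphingolipid, 6 for glycoprotein, 5 for lipid and thioester and 3 for nucleic acid degradation, 1 for glycogen, 2 acid phosphatase genes, 4 peptidase genes and 4 genes for processing enzymes. Poly-A selected RNA was sequenced from 5 samples of brain cells sorted for CD11b, at 400000 cells per sample and called microglia here, and from 5 samples of hemi brains, called bulk brain. Every mouse was a young C57BL/6 male, with no treatment or transgene named. Whether the samples within a group are different animals is not recorded, and each p-value is therefore set against the spread of these libraries, possibly a technical one. Values given as mean ± SD are over the 5 libraries of a group, with microglia first. CD11b also marks other myeloid cells, and the sorted group therefore rests on that antigen alone.

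Most soluble lysosomal hydrolases are made in the endoplasmic reticulum, receive a mannose phosphate tag in the Golgi and are carried to lysosomes by receptors that bind the tag. The N-acetylglucosamine phosphotransferase, encoded by Gnptab and Gnptg, starts the tag, and the uncovering enzyme encoded by Nagpa completes it, while the sulfatases also need the formylglycine-generating enzyme encoded by Sumf1. Loss of a single hydrolase causes storage of its substrate, in many cases with disease of the brain, and microglia, as the phagocytes of the brain, take up and degrade myelin, synaptic material and dead cells.

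Libraries held 25087489 to 28514509 counts in microglia and 25845049 to 34709215 in bulk brain. All 8 microglia markers listed were higher in the sorted cells, with a summed level of 26018 to 27195 CPM (counts per 1000000, with library totals scaled for composition by TMM) against 156 to 208 CPM. Itgam, among these markers, encodes CD11b, the antigen of the sort, so its rise is not separate support for the identity of the cells. The sorted cells were low in markers of neurons (4.70 to 7.76 CPM summed, against 4740 to 5165 CPM), astrocytes (5.09 to 24.8 against 1846 to 3138 CPM) and oligodendrocytes (88.1 to 182 against 5194 to 6974 CPM), though none of these marker genes was at 0 in all microglia libraries. Markers of endothelium (24.7 to 50.9 against 189 to 245 CPM) and choroid plexus (49.7 to 151 against 541 to 1280 CPM) were also lower. All 6 markers of border-associated macrophages were also higher in the sorted cells, at 466 to 601 CPM summed against 8.75 to 11.2 CPM, and so were 5 of 6 neutrophil and monocyte markers, at 32.3 to 42.5 against 0.468 to 1.16 CPM. The part of these cells in the results below was not tested. Bulk brain replicates 1 and 2 stood apart from replicates 3 to 5 on a first component that held 73.7% of the variance within bulk brain, so results are also given against replicates 3 to 5 alone where this changed them.

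Most of the enzyme genes were higher in microglia. Of the 41 genes that passed the filter on low counts, 33 were higher (37.2% of all 18969 genes tested were), 7 were lower (43.9% of all genes were) and 1 did not pass the threshold (edgeR quasi-likelihood test, adjusted p under 0.05 over all genes). At least 2-fold, 27 were higher (27.8% of all genes) and 4 lower (36.8%). Their median log2 difference, microglia minus bulk brain, was 2.06, beside -0.14 over all genes tested. All microglia libraries lay above all bulk brain libraries for 32 genes (34.2% of all genes tested) and below them for 6 (40.5%). The filter removed Acp5 alone, and each other gene had at least 115 counts in every library, so none passed through 1 group only. The 7 lower genes were Gaa, Ids, Pld3, Smpd1, Gla, Gnptg and Gnptab. In whole tissue, fewer cells of a type and less RNA per cell cannot be told apart, which holds for every bulk brain level given here. Only the microglia samples were sorted cells, so handling during the sort and cell type cannot be told apart either. This holds for every difference between the groups given here. Summed over the 42 genes, these transcripts amounted, without correction for length, to 13138 ± 279.8 CPM (SD, n = 5) in microglia and 2676 ± 107 CPM (n = 5) in bulk brain. Lgmn, Man2b1 and Ctsa made up 46.6% of the sum in microglia, while Ids, Gaa and Pld3 made up 43.6% of it in bulk brain.

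**Figure D1:**
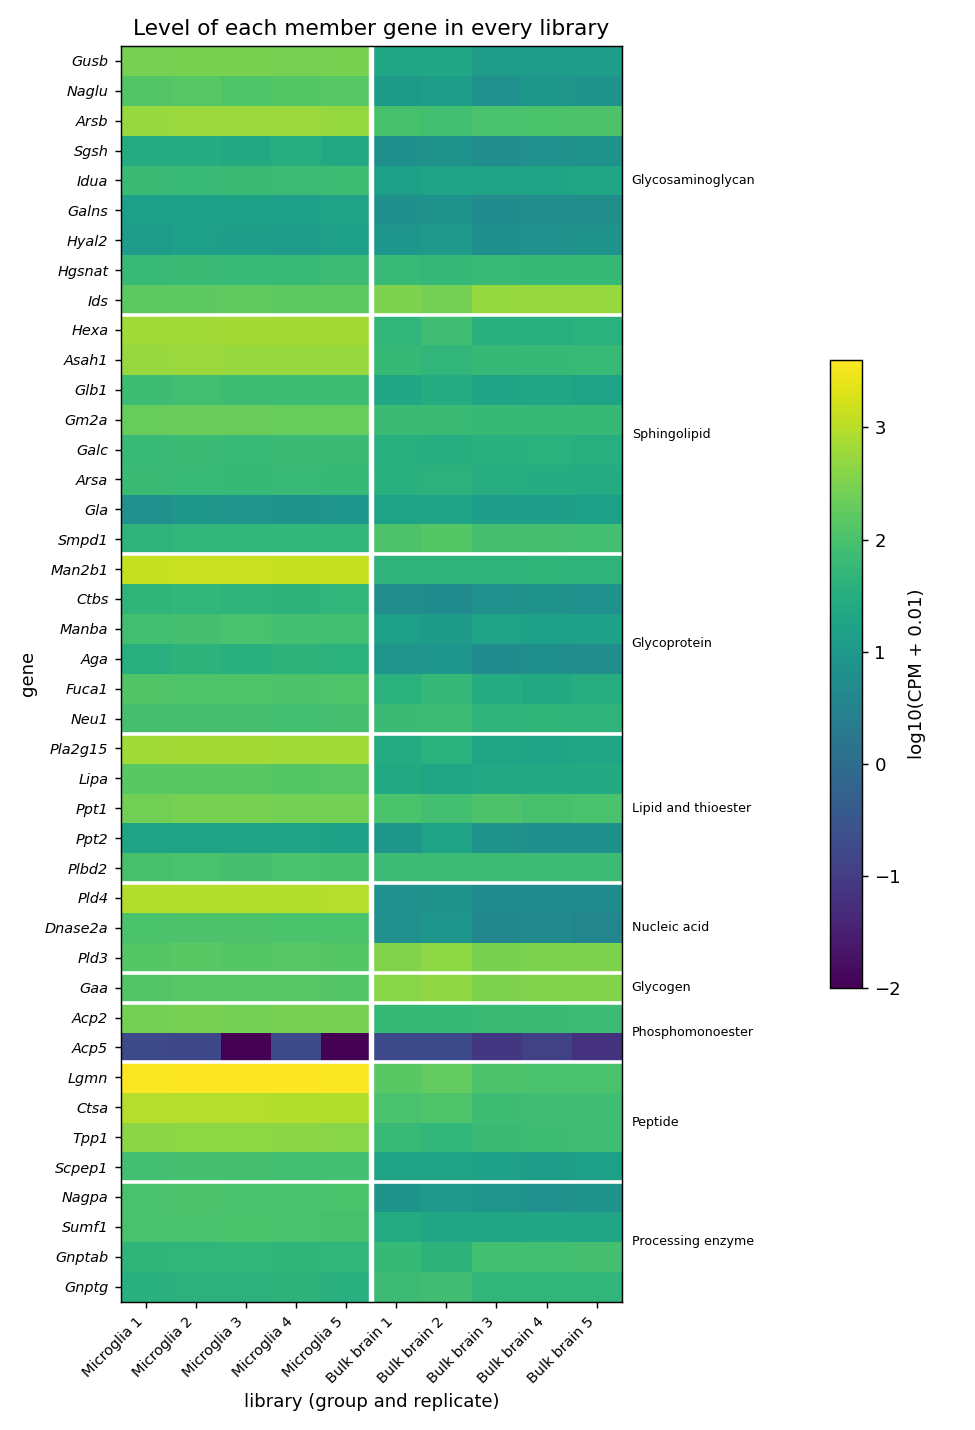
Level of each gene (rows, grouped by substrate or role) in each of the 10 libraries (columns), as colour on a log10 scale of CPM + 0.01. Lgmn is the brightest row in microglia, Acp5 is dark in every library, and Ids, Pld3, Gaa and Smpd1 are brighter in bulk brain than in microglia.

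**Figure D2:**
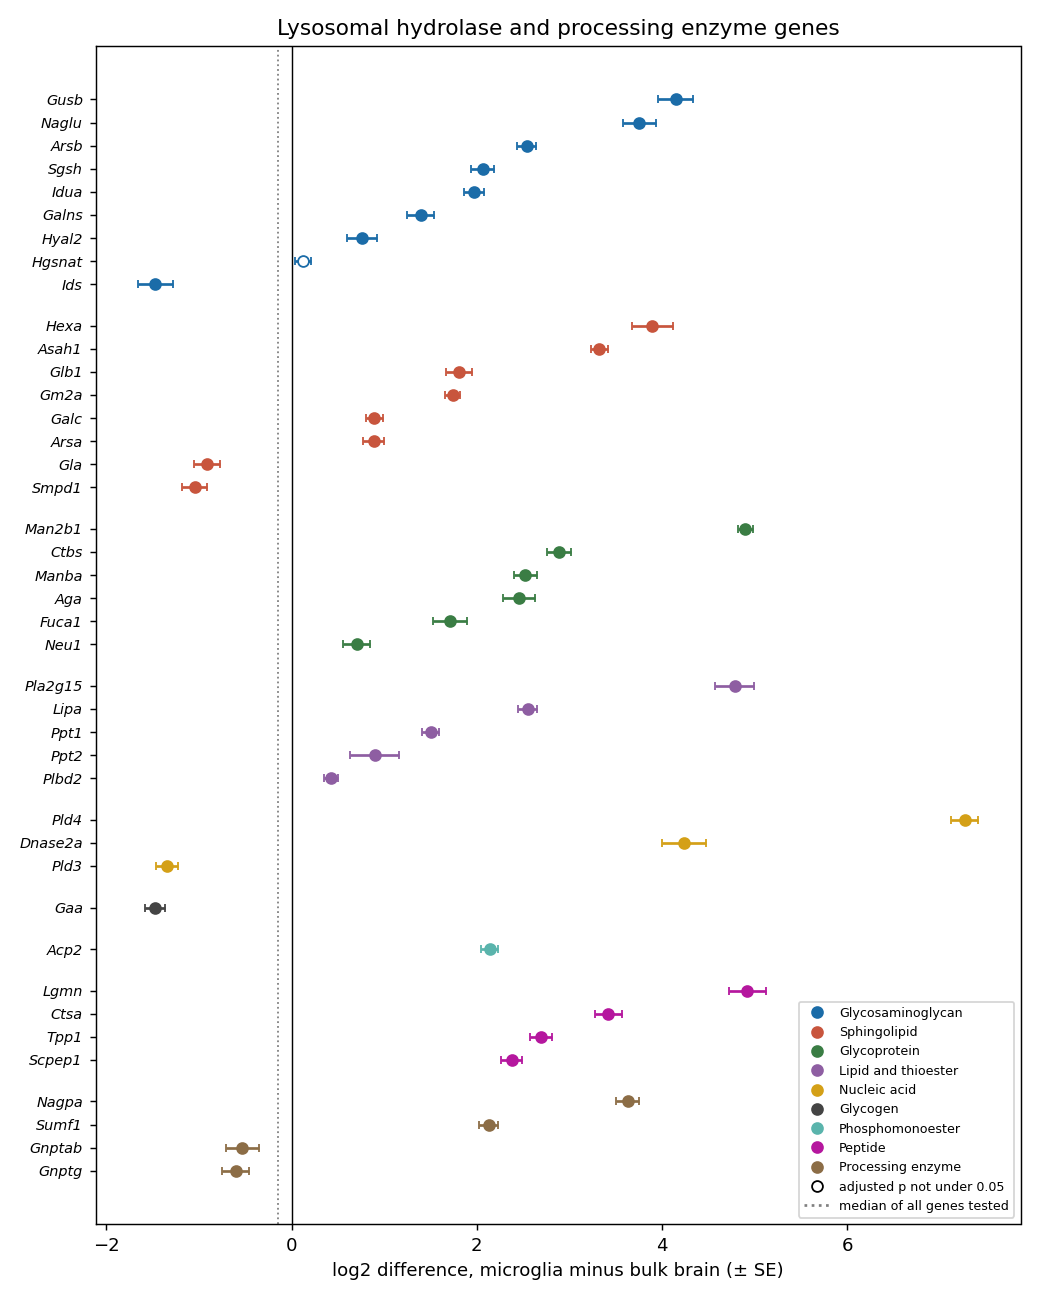
Log2 difference (x axis, microglia minus bulk brain, ± SE) of the 41 genes tested, grouped by substrate or role, with the dotted line at the median of all genes tested (-0.14). Points lie right of 0 for 33 genes that passed, and the open point is Hgsnat, which did not pass.

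Most glycosaminoglycan-degrading enzymes remove sulfates and sugars in turn from the ends of heparan, dermatan, keratan and chondroitin sulfate chains. The class here also holds the acetyltransferase gene Hgsnat and the hyaluronidase gene Hyal2, whose products act otherwise. Of its 9 genes, 7 were higher in microglia, 1 was lower and 1 did not pass (median log2 difference 1.97). Gusb, which encodes beta-glucuronidase, stood at 289, 299, 293, 282 and 297 CPM in microglia replicates 1 to 5 and 20.1, 22.9, 12.7, 12.4 and 14.1 CPM in bulk brain replicates 1 to 5. The microglia values were close to each other and every one was above the bulk brain range, a log2 difference of 4.15 ± 0.19 SE, adjusted p = 1.8e-09 in edgeR. Naglu, the alpha-N-acetylglucosaminidase gene of heparan sulfate degradation, followed at 132 ± 10.6 CPM against 9.73 ± 2.48 CPM, a log2 difference of 3.75. Idua, which encodes alpha-L-iduronidase, stood at 67.3, 63.5, 66.9, 69.8 and 73.6 CPM in microglia replicates 1 to 5 and 14.4, 17.2, 16.6, 19.0 and 19.8 CPM in bulk brain replicates 1 to 5. The groups did not overlap (log2 difference 1.97 ± 0.11 SE, adjusted p = 8.3e-09 in edgeR). Idua overlaps Dgkq on the opposite strand, whose total count was 90.9% of that of Idua, and the strand setting of the counting is not given in the sources used here.

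Ids went the other way. This gene (ENSMUSG00000035847, chromosome X, 69386675 to 69408690, minus strand, GRCm39) encodes iduronate sulfatase, which acts just before alpha-L-iduronidase on heparan and dermatan sulfate. Its levels were 152, 161, 173, 163 and 152 CPM in microglia replicates 1 to 5 and 339, 269.6, 523, 541 and 549.8 CPM in bulk brain replicates 1 to 5. Every bulk brain library was above every microglia library, with replicates 1 and 2 the lowest of their group (log2 difference -1.47 ± 0.19 SE, adjusted p = 1.9e-05 in edgeR). Hgsnat, which encodes the membrane-bound acetyltransferase of heparan sulfate degradation, stood at 61.9, 67.6, 58.4, 64.2 and 68.7 CPM in microglia replicates 1 to 5 and 64.2, 55.2, 59.5, 57.9 and 58.1 CPM in bulk brain replicates 1 to 5. These ranges overlapped, the log2 difference was 0.12 ± 0.08 SE, adjusted p = 0.2 in edgeR, and its sign changed with other scalings and without bulk brain replicate 2. The sulfatase genes Arsb, Sgsh and Galns were higher, at log2 differences of 2.54, 2.06 and 1.39, as was the hyaluronidase gene Hyal2 at 0.76. Of the 5 sulfatase genes among the 42, which also include Arsa, 4 were thus higher and 1, Ids, was lower.

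Sphingolipid-degrading enzymes take gangliosides, sulfatide, galactosylceramide, sphingomyelin and ceramide apart, and several act on myelin lipids. Of 8 genes, 6 were higher in microglia and 2 lower (median log2 difference 1.32). Hexa, which encodes the alpha subunit of beta-hexosaminidase, stood at 678, 684, 704, 722 and 693 CPM in microglia replicates 1 to 5 and 49.6, 76.1, 35.9, 34.6 and 37.3 CPM in bulk brain replicates 1 to 5. Bulk brain replicate 2 was the highest of its group and still far below microglia (log2 difference 3.90 ± 0.23 SE, adjusted p = 1.3e-08 in edgeR). Asah1, the acid ceramidase gene, was next at 559 ± 17.4 CPM against 55.8 ± 4.75 CPM. Gm2a, whose product presents a ganglioside to beta-hexosaminidase, stood at 203 ± 6.29 CPM against 60.9 ± 4.58 CPM. Glb1, the beta-galactosidase gene, stood at 71.7, 81.4, 72.3, 71.9 and 72.5 CPM in microglia replicates 1 to 5 and 21.3, 29.0, 18.6, 19.5 and 17.4 CPM in bulk brain replicates 1 to 5. The groups did not overlap (log2 difference 1.804 ± 0.14 SE, adjusted p = 1.9e-07 in edgeR). Glb1 shares its position with Tmppe on the same strand, which held 28.3% as many counts. Galc, which encodes the galactosylceramidase of myelin lipid degradation, and Arsa, which encodes the arylsulfatase that acts on sulfatide, had small differences of 0.90 and 0.89.

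Smpd1, which encodes acid sphingomyelinase, was lower in microglia, at 43.9, 49.0, 50.6, 51.6 and 51.1 CPM in microglia replicates 1 to 5 and 109, 135, 89.9, 87.9 and 86.6 CPM in bulk brain replicates 1 to 5. All bulk brain libraries lay above all microglia libraries, with replicates 1 and 2 the highest (log2 difference -1.04 ± 0.13 SE, adjusted p = 1.6e-05 in edgeR). Gla, the X-linked alpha-galactosidase A gene (ENSMUSG00000031266, chromosome X, 133488898 to 133501874, minus strand), was lower as well. It stood at 6.99, 9.11, 8.44, 7.52 and 8.63 CPM in microglia replicates 1 to 5 and 16.9, 17.9, 13.5, 14.0 and 14.2 CPM in bulk brain replicates 1 to 5, without overlap (log2 difference -0.91 ± 0.14 SE, adjusted p = 6.8e-05 in edgeR). Ids and Gla, which were the X-linked genes among the 42, were both lower in microglia, as were 43.9% of all genes tested. Other X-linked genes were not counted.

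All 6 genes for enzymes that trim the glycans of glycoproteins were higher in microglia, and the median of their log2 differences was 2.49. Man2b1 (ENSMUSG00000005142, chromosome 8, 85809899 to 85824911, plus strand), the lysosomal alpha-mannosidase gene, stood at 1278, 1348, 1380, 1311 and 1316 CPM in microglia replicates 1 to 5 and 43.6, 44.9, 45, 45.2 and 43.1 CPM in bulk brain replicates 1 to 5. Both groups were tight and far apart, a log2 difference of 4.90 ± 0.09 SE, adjusted p = 2.8e-12 in edgeR. Manba, which encodes the beta-mannosidase that cleaves the last mannose link, stood at 78.8, 88.2, 96.7, 86.2 and 81.2 CPM in microglia replicates 1 to 5 and 14.7, 11.5, 17.5, 14.8 and 16.5 CPM in bulk brain replicates 1 to 5 (log2 difference 2.52 ± 0.13 SE, adjusted p = 3.7e-09 in edgeR). The chitobiase gene Ctbs, the aspartylglucosaminidase gene Aga and the alpha-fucosidase gene Fuca1 stood at log2 differences of 2.89, 2.46 and 1.71. Ctbs overlaps Spata1 on the opposite strand, which held 27.7% as many counts. Neu1, which encodes the lysosomal sialidase, stood at 87.6, 88.4, 89.4, 86.9 and 88.5 CPM in microglia replicates 1 to 5 and 65.0, 70.5, 44.3, 47.0 and 43.6 CPM in bulk brain replicates 1 to 5. Its microglia libraries hardly varied, and its bulk brain libraries split into replicates 1 and 2 above and replicates 3 to 5 below, all under the microglia range (log2 difference 0.70 ± 0.14 SE, adjusted p = 7.1e-04 in edgeR).

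The 5 genes for lipid and thioester degradation were higher too (median log2 difference 1.502). Pla2g15, the lysosomal phospholipase A gene, stood at 669, 709.7, 712, 687 and 662 CPM in microglia replicates 1 to 5 and 27.4, 38.1, 19.5, 19.2 and 20.3 CPM in bulk brain replicates 1 to 5. Bulk brain replicates 1 and 2 were above the rest of their group and below every microglia library (log2 difference 4.79 ± 0.21 SE, adjusted p = 1.3e-09 in edgeR). Lipa, which encodes the acid lipase for cholesteryl esters and triglycerides, stood at 143 ± 5.42 CPM against 24.4 ± 2.99 CPM. Ppt1, which encodes the thioesterase that removes palmitate from proteins, was at 260.3, 292, 289.8, 275 and 269 CPM in microglia replicates 1 to 5 and 102, 83.9, 107, 96.3 and 100.5 CPM in bulk brain replicates 1 to 5 (log2 difference 1.502 ± 0.09 SE, adjusted p = 1.8e-08 in edgeR). It overlaps Cap1 on the opposite strand, a gene with 177% of its counts and a log2 difference of 1.37. As the strand setting is not given, the part of Cap1 reads in the Ppt1 counts is not known, here or in the ratio Ppt2/Ppt1 below. Ppt2, which encodes a related thioesterase, stood at 18.9, 18.2, 17, 18.3 and 16.1 CPM in microglia replicates 1 to 5 and 9.01, 17.9, 7.39, 6.62 and 6.55 CPM in bulk brain replicates 1 to 5. Its groups overlapped because bulk brain replicate 2 reached the microglia range, and the call (log2 difference 0.90 ± 0.27 SE, adjusted p = 0.0083 in edgeR) was lost against bulk brain replicates 1 and 2 alone (0.33, edgeR adjusted p = 0.17). Plbd2, which encodes a phospholipase B-like protein, had the smallest difference that passed, at 92.9, 97.3, 90.2, 97.1 and 94.7 CPM in microglia replicates 1 to 5 and 70.4, 70.3, 70.7, 69.5 and 70.1 CPM in bulk brain replicates 1 to 5. Both groups varied so little that they did not overlap (log2 difference 0.43 ± 0.07 SE, adjusted p = 1.4e-04 in edgeR).

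The nucleases held the widest contrast. Pld4 (ENSMUSG00000052160, chromosome 12, 112727089 to 112735424, plus strand) and Pld3 (ENSMUSG00000003363, chromosome 7, 27231425 to 27252643, minus strand) encode related endolysosomal exonucleases of the phospholipase D family, which degrade single-stranded nucleic acid and thereby limit ligands of endosomal Toll-like receptors. Pld4 stood at 894, 918, 901, 892 and 948 CPM in microglia replicates 1 to 5 and 6.71, 7.30, 5.09, 5.11 and 5.26 CPM in bulk brain replicates 1 to 5. This was the largest rise among the 41 genes tested, a log2 difference of 7.27 ± 0.15 SE, adjusted p = 6.6e-12 in edgeR or 154-fold. Pld3 stood at 132, 145, 133, 139.8 and 132 CPM in microglia replicates 1 to 5 and 345, 452, 295, 312 and 325 CPM in bulk brain replicates 1 to 5, so that the order of the groups was turned around without overlap (log2 difference -1.34 ± 0.12 SE, adjusted p = 6.6e-07 in edgeR). Dnase2a, which encodes the acid endonuclease for DNA, was higher in microglia, at 103, 109, 107, 103 and 105 CPM in microglia replicates 1 to 5 and 6.74, 8.78, 4.19, 4.54 and 3.66 CPM in bulk brain replicates 1 to 5 (log2 difference 4.24 ± 0.24 SE, adjusted p = 9.5e-09 in edgeR). Mast1 overlaps it on the opposite strand with 72.2% as many counts.

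Gaa, which encodes the acid alpha-glucosidase that degrades glycogen, was lower in microglia by about as much as Ids. It stood at 129, 142, 143, 138 and 125 CPM in microglia replicates 1 to 5 and 397, 465, 333, 350.4 and 339.8 CPM in bulk brain replicates 1 to 5. All bulk brain libraries lay far above microglia, replicates 1 and 2 highest (log2 difference -1.48 ± 0.11 SE, adjusted p = 1.3e-07 in edgeR). Gaa and Ids did not differ in this beyond their SEs, and against replicates 3 to 5 alone the log2 difference of Gaa was -1.49 and the log2 difference of Ids -1.90. Of the 2 acid phosphatase genes, Acp2 was higher in microglia, at 271, 288, 276, 279 and 286 CPM in microglia replicates 1 to 5 and 56.9, 56.2, 67.3, 67.0 and 69.4 CPM in bulk brain replicates 1 to 5 (log2 difference 2.14 ± 0.09 SE, adjusted p = 1.1e-09 in edgeR). Acp5, which encodes the tartrate-resistant phosphatase of osteoclasts and some macrophages, had 4, 4, 0, 4 and 0 counts in microglia replicates 1 to 5 and 6, 6, 2, 4 and 2 in bulk brain replicates 1 to 5. It overlaps 6530413G14Rik, which held 34.4% as many counts. Counts of 0 allow up to 3 counts in a library, by counting error alone, and no difference in Acp5 was detectable at this depth.

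All 4 peptidase genes were at least 2-fold higher in microglia (median log2 difference 3.06). Lgmn (ENSMUSG00000021190, chromosome 12, 102360343 to 102406072, minus strand), which encodes the asparaginyl endopeptidase legumain, an activator of other lysosomal proteases, stood at 3716, 4015, 3855, 3882 and 3815 CPM in microglia replicates 1 to 5 and 147, 184, 107, 98.5 and 98.8 CPM in bulk brain replicates 1 to 5. It was the most abundant of the 42 transcripts in microglia per length as well (log2 difference 4.92 ± 0.20 SE, adjusted p = 7.4e-10 in edgeR). Ctsa, which encodes cathepsin A, the protective protein for sialidase and beta-galactosidase, stood at 931, 948, 943, 929 and 916 CPM in microglia replicates 1 to 5 and 98.1, 114, 71.9, 77.2 and 74.9 CPM in bulk brain replicates 1 to 5 (log2 difference 3.42 ± 0.14 SE, adjusted p = 8.3e-10 in edgeR). Tpp1, the tripeptidyl peptidase gene, reached 433 ± 15.6 CPM against 66.8 ± 10.4 CPM. Scpep1, which encodes a serine carboxypeptidase, had the smallest difference of the group, at 86.1, 87.4, 87.5, 82.7 and 83.5 CPM in microglia replicates 1 to 5 and 19.0, 18.8, 15.8, 13.8 and 14.7 CPM in bulk brain replicates 1 to 5 (log2 difference 2.38 ± 0.11 SE, adjusted p = 2.4e-09 in edgeR).

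The 4 processing enzyme genes did not move together, with 2 higher and 2 lower in microglia. Nagpa, which encodes the enzyme that uncovers the mannose phosphate tag, stood at 100.1, 112, 99.7, 97.2 and 104 CPM in microglia replicates 1 to 5 and 7.94, 10.5, 8.44, 6.95 and 7.57 CPM in bulk brain replicates 1 to 5, a log2 difference of 3.63 ± 0.13 SE, adjusted p = 2.0e-10 in edgeR. Sumf1, which encodes the formylglycine-generating enzyme that activates sulfatases, stood at 97.0, 100.2, 104, 99.2 and 92.5 CPM in microglia replicates 1 to 5 and 27.5, 22.6, 21.0, 21.8 and 19.8 CPM in bulk brain replicates 1 to 5 (log2 difference 2.13 ± 0.10 SE, adjusted p = 3.4e-09 in edgeR). The phosphotransferase genes that act before Nagpa were both lower, by less than 2-fold in the fit to all libraries. Gnptab, which encodes the catalytic alpha and beta subunits, stood at 45.9, 49.99, 51.8, 45.7 and 49.8 CPM in microglia replicates 1 to 5 and 57.8, 42, 80.0, 81.6 and 89.9 CPM in bulk brain replicates 1 to 5. Bulk brain replicate 2 lay below all microglia libraries but replicate 3 to 5 values lay well above them, and the log2 difference was -0.53 ± 0.18 SE, adjusted p = 0.018 in edgeR. This call was lost against bulk brain replicates 1 and 2 alone (-0.125, edgeR adjusted p = 0.42) and with coding genes alone (-0.42, edgeR adjusted p = 0.056). Over all settings the log2 difference of Gnptab ran from -0.942 to -0.125. Gnptg, which encodes the gamma subunit, stood at 35.6, 40.2, 39.3, 41.1 and 35 CPM in microglia replicates 1 to 5 and 70.0, 75.4, 48.7, 48.6 and 47.8 CPM in bulk brain replicates 1 to 5, here with bulk brain replicates 1 and 2 the highest (log2 difference -0.60 ± 0.15 SE, adjusted p = 0.0027 in edgeR). Unkl overlaps Gnptg on the opposite strand with 43.5% as many counts.

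The tag is read by 2 receptors, and their genes differed in direction. M6pr, the gene of the cation-dependent mannose phosphate receptor, stood at 291 ± 9.81 CPM against 97.0 ± 12.9 CPM, a log2 difference of 1.59 ± 0.10 SE, adjusted p = 3.8e-08 in edgeR. Igf2r, the gene of the larger cation-independent receptor, stood at 0.914, 2.37, 2.31, 1.39 and 0.5 CPM in microglia replicates 1 to 5 and 31.1, 21.6, 55.9, 60.5 and 57.1 CPM in bulk brain replicates 1 to 5. Bulk brain replicates 1 and 2 were the lowest of their group and still far above every microglia library (log2 difference -4.91 ± 0.45 SE, adjusted p = 8.5e-07 in edgeR). In a list of 8 genes for sorting receptors, adaptors and the activator precursor Psap, 5 were higher, 1 (Igf2r) was lower and 2 did not pass (median log2 difference 0.70). Scarb2, the sorting receptor of glucocerebrosidase, had the largest rise of that list at 1.76. Of 22 other lysosomal hydrolase genes tested from a list of 23, 18 were higher, 1 lower and 3 did not pass (median 1.88). The sialidase gene Neu4 was the lower one, at 0.0326 ± 0.0446 CPM against 9.85 ± 1.37 CPM. All 4 genes of the MiT/TFE transcription factors, which drive lysosomal genes, were higher, from Mitf (2.40) to Tfec (6.36), the latter at 2.85 ± 0.772 CPM against 0.0351 ± 0.0631 CPM.

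The level in bulk brain, taken as a percentage of the mean microglia level, ranged over a wide span. Microglia markers, transcripts held mainly by microglia in brain, stood in bulk brain at 0.533% (Gpr34) to 1.84% (Aif1) of the microglia level, with a median of 0.642%. Pld4, at 0.647% ± 0.114 (SD over the 5 bulk brain libraries), was the 1 gene of the 42 within that range. Lgmn (3.30% ± 0.978), Man2b1 (3.34% ± 0.0729), Pla2g15 (3.62% ± 1.18) and Dnase2a (5.30% ± 2.03) came next, above every marker. In all, 11 genes were under 10%, 16 from 10% to under 50%, 7 from 50% to 100% and 8 over 100%, the last including Acp5 at the limit of detection (median 24.7%). At the far end stood Pld3 at 253% ± 45.4, Ids at 277% ± 81.7 and Gaa at 278% ± 40.6.

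**Figure D3:**
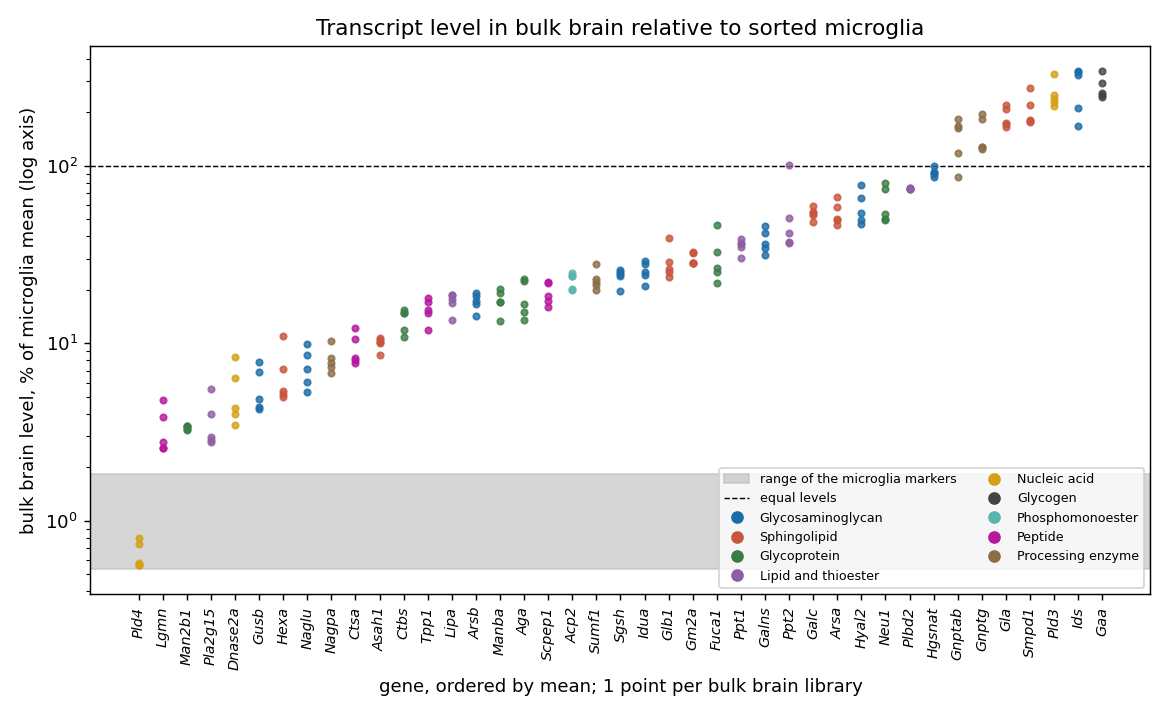
Level in each of the 5 bulk brain libraries as a percentage of the mean microglia level (y axis, log scale; 1 point per library) for the genes above the detection limit, ordered by mean and coloured by substrate or role. Pld4 lies inside the grey band of the microglia markers (0.533% to 1.84%), and Gaa, Ids and Pld3 lie far above the dashed line of equal levels.

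Levels of different genes were compared per length, as CPM per kb of the gene length given in the table. Which transcripts that length covers is not stated, and the order of the genes depends on it. Without correction for length, Lgmn, Man2b1 and Ctsa led in microglia. In microglia, Lgmn led at 1660 ± 46.8 CPM per kb (SD, n = 5), ahead of Hexa (349 ± 8.76), Pld4 (263 ± 6.75), Pla2g15 (228 ± 7.55) and Ctsa (198 ± 2.63). Each of these steps was larger than the SDs of both neighbours. Man2b1 (165 ± 4.84) and Asah1 (165 ± 5.13) followed and did not differ beyond their spread. In bulk brain the order was another one, with Pld3 first at 118 ± 21.2 CPM per kb. Ids (87.1 ± 25.6), Gaa (78.8 ± 11.5) and Lgmn (54.8 ± 16.2) followed. The SDs of Pld3 and Ids overlapped, as did those of Ids, Gaa and Lgmn, but those of Pld3 and Gaa did not. The 3 genes that led bulk brain thus all belonged to those lower in microglia, where they stood at 46.7 ± 1.99, 31.4 ± 1.70 and 28.3 ± 1.66 CPM per kb.

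**Figure D4:**
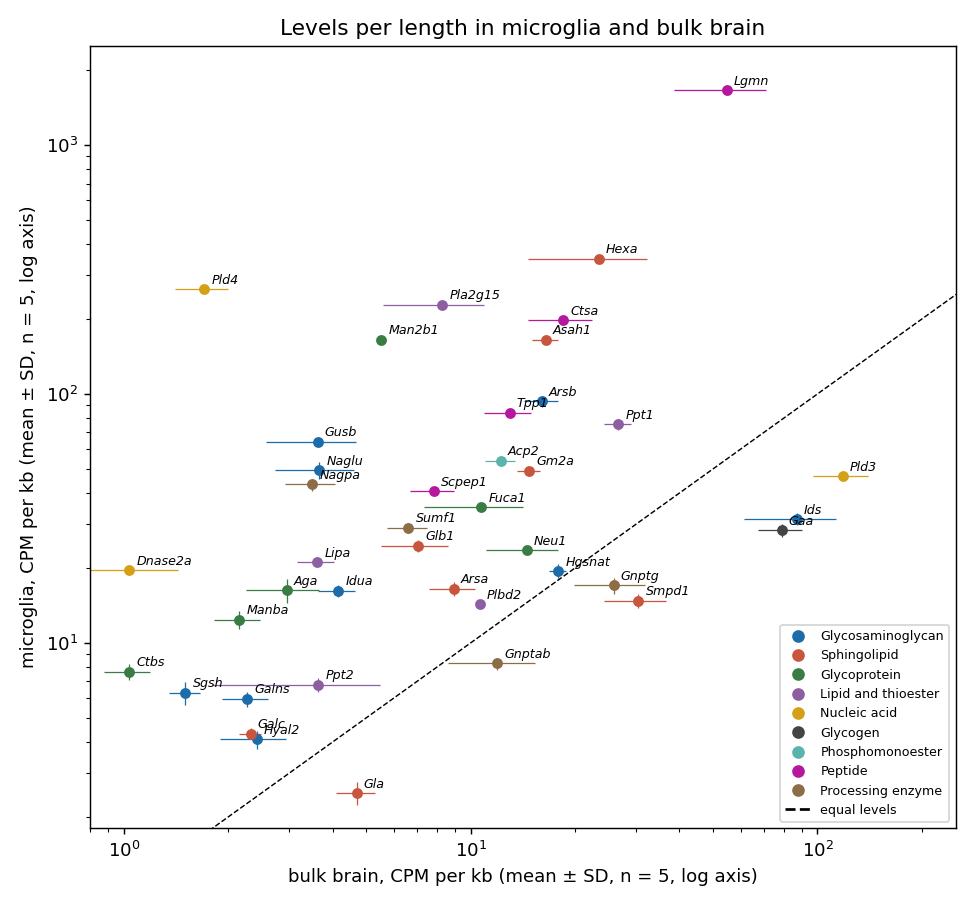
Level per length in bulk brain (x axis) and microglia (y axis), both in CPM per kb on log axes, as mean ± SD of 5 libraries for each gene above the detection limit. Lgmn is highest on the microglia axis, Pld3 is rightmost on the bulk brain axis, and genes under the dashed line are lower in microglia.

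Pairs of related enzymes or subunits were compared by the log2 ratio of their counts per length within each library, which does not depend on the scaling between libraries. These ratios rest on the same counts as the differences above and are not separate support for them. The ratio differed between the groups in 6 of the 8 pairs reported (exact two-sided permutation test, p = 0.0079 each, the smallest that 5 against 5 libraries allow, and 0.01 after adjustment over all 9 pairs tested), each time with no overlap. The ratio Pld4/Pld3 was 2.51, 2.41, 2.51, 2.43 and 2.60 in microglia replicates 1 to 5 and -5.92, -6.19, -6.10, -6.17 and -6.19 in bulk brain replicates 1 to 5. Microglia thus held more Pld4 than Pld3 in every library and bulk brain far more Pld3 than Pld4 in every library, a difference between means of 8.61. Ids was above Idua in microglia (mean 0.95 ± 0.13, SD, n = 5) and much above it in bulk brain (4.34 ± 0.40, n = 5).

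Members of the sialidase complex and the mannosidases also stood in other proportions. Neu1 and Glb1, whose products are held in a complex with cathepsin A, were lower relative to Ctsa in microglia, with means of -3.07 ± 0.02 and -3.01 ± 0.07 (SD, n = 5), than in bulk brain, with -0.36 ± 0.07 and -1.39 ± 0.11 (n = 5). Manba stood at -3.74 ± 0.08 relative to Man2b1 in microglia and at -1.38 ± 0.24 in bulk brain. The ratio Acp5/Acp2 also differed, with a mean of -10.53 against -7.65, but in the 2 microglia libraries without an Acp5 count it is set by the 0.5 counts added before the logarithm.

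No difference passed for the remaining pairs. The ratio Ppt2/Ppt1 was -3.29, -3.51, -3.60, -3.42 and -3.57 in microglia and -3.01, -1.74, -3.36, -3.37 and -3.44 in bulk brain, with replicate 2 far above the rest (exact permutation p = 0.079, adjusted p = 0.089). The ratio Gnptg/Gnptab was 1.02, 1.07, 0.99, 1.24 and 0.88 in microglia. In bulk brain it was 1.66, 2.23, 0.67, 0.64 and 0.48, so that microglia lay below replicates 1 and 2 and above replicates 3 to 5 (exact permutation p = 0.76, adjusted p = 0.76). Against replicates 3 to 5 alone the difference between means turned from -0.10 to 0.44 (exact permutation, adjusted p = 0.04).

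**Figure D5:**
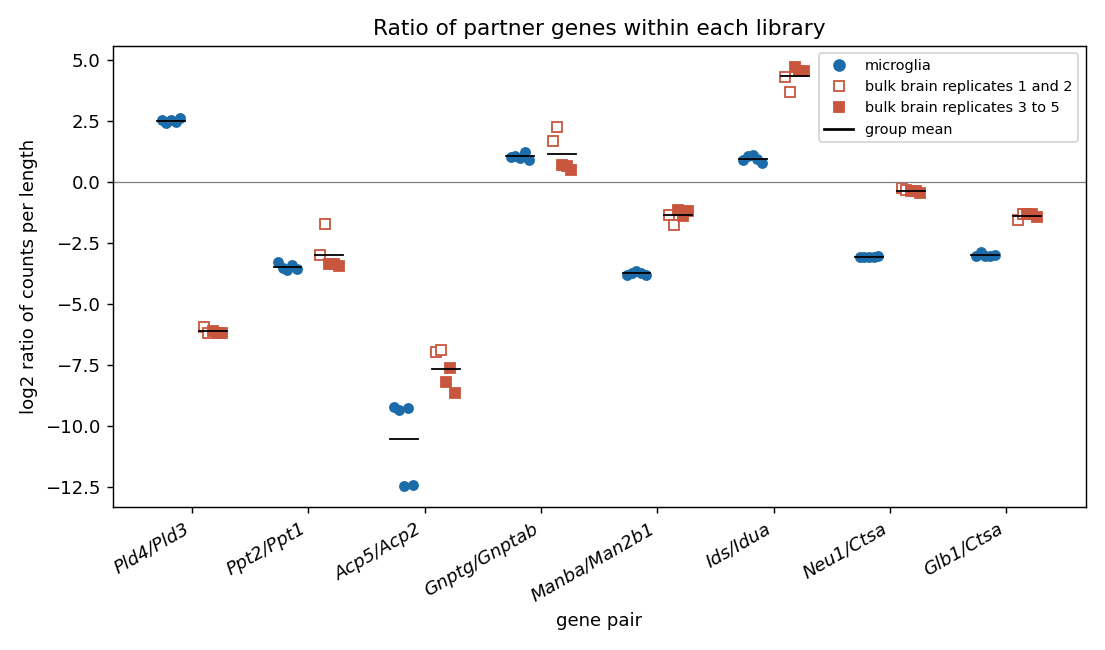
Log2 ratio of counts per length for 8 gene pairs (y axis) in each library, with circles for microglia, open squares for bulk brain replicates 1 and 2, filled squares for replicates 3 to 5 and bars for group means. The groups of Pld4/Pld3 lie on opposite sides of 0, and the open and filled squares of Gnptg/Gnptab lie on opposite sides of the microglia points.

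Variation over all 5 libraries of a group was larger in bulk brain. The coefficient of variation was larger there than in microglia for 37 of 42 genes, with a median of 16.0% against 5.14%. The share over all genes tested was not computed, so this is not shown to be particular to these genes. Over all genes with enough counts, the chi-square per degree of freedom between pairs of libraries was 5.17 to 246 in bulk brain. In microglia it was 7.11 to 11.4, so the closest bulk brain pair had a lower value than any microglia pair. On the first component within bulk brain, replicates 1 and 2 lay at -42.6 and -96.44, and replicates 3 to 5 at 44.66 to 47.25. Both of replicates 1 and 2 lay above all of replicates 3 to 5 for 25 genes, among them Hexa, Pla2g15, Lgmn, Fuca1 and Gaa, and below all of them for 8, which were Ids, Arsb, Galc, Manba, Ctbs, Acp2, Tpp1 and Gnptab. Over all genes tested the shares were 35% and 34.1%. Marker levels also split between these libraries, though not in 1 direction for every list. All 5 oligodendrocyte markers were higher in both of replicates 1 and 2 than in any of the others, at a sum of 6518 and 6974 against 5194 to 5281 CPM. The astrocyte markers summed to 2025 and 1846 against 3061 to 3138 CPM, a sum carried by Slc1a2, and went both ways. Slc1a2 (1355 and 1196 against 2377 to 2443 CPM), Aqp4 and Gja1 were lower in replicates 1 and 2, while Gfap (286 and 319.8 against 207 to 215 CPM) and Aldh1l1 (68.4 and 76.7 against 47.0 to 51.5 CPM) were higher there. Of the choroid plexus markers, Ttr (954 and 1238 against 494 to 551 CPM) and Folr1 were higher in replicates 1 and 2, Kl (30.4 and 21.7 against 36.1 to 38.6 CPM) was lower and Aqp1 overlapped. Their part in the spread of the enzyme genes was not tested. Against replicates 3 to 5 alone, 33 genes were higher and 7 lower, and no call of a gene was lost.

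Many lysosomal genes carry near their start the CLEAR element, TCACGTG with a G before it and AC after it, an extended E-box (CACGTG) to which MiT/TFE factors bind. RefSeq promoter windows (GRCm38.p6, 250 bases before to 50 after each start) were found by symbol for 37 of the 42 genes, and not for Plbd2, Hgsnat, Galns, Aga and Asah1. The full element was in none of them, and in 0.37% of all 27025 genes with a window. The 7-letter form TCACGTG, searched on both strands and containing the E-box, was in the windows of 11 genes, 29.7% of those matched, beside 4.29% of all genes with a window. The E-box alone was in the windows of the same 11 genes and in 8.09% of all genes. These stretches are shown because the letters recur in genes of both directions. They are given from the largest rise in microglia to the largest fall, 5′ to 3′ on the strand of the gene with 10 bases on each side, and the capitals mark TCACGTG, its reverse complement, or both where they overlap.
Lgmn (chr12:102439126-102439152, minus strand): ggaatgtctgTCACGTGgtccatttta
Naglu (chr11:101070010-101070036, plus strand): aaccttcaggTCACGTGgcccgaggtc
Nagpa (chr16:5204007-5204033, minus strand): tggcctggaaTCACGTGgggcgagccc
Ctsa (chr2:164833750-164833777, plus strand): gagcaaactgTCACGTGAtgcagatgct
Sumf1 (chr6:108185578-108185605, minus strand): gcaccacaggTCACGTGAtctccatggg
Sgsh (chr11:119355523-119355549, minus strand): gcctgccgtgCACGTGAccgtggggag
Glb1 (chr9:114401019-114401045, plus strand): tgcttctgagTCACGTGgcctacagag
Arsa (chr15:89477425-89477451, minus strand): caactcagtgTCACGTGttgtctgctc
Gnptg (chr17:25240121-25240148, minus strand): cggctgtcacTCACGTGAccgtgagacc
Gla (chrX:134601183-134601210, minus strand): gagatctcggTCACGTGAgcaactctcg
Gaa (chr11:119267812-119267838, plus strand): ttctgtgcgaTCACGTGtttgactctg

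Of these 11 genes, 8 were higher and 3 (Gnptg, Gla and Gaa) lower in microglia, and the median of their log2 differences was 2.06. The 26 genes with a window that lacked the letters included 21 higher and 4 lower ones, with a median of 2.14 over those tested. The letters were thus found on both sides, in Lgmn and Ctsa and also in Gaa, Gla and Gnptg. Nagpa, Ctsa and Gla held a second site in the window, and the stretch shown for them is the one nearest before the start. A match is a run of letters and does not show that a factor binds there.

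The nuclease genes Pld4 and Pld3, which differed between the groups in opposite directions, also differed in the letters before their starts, and the 250 bases before each start are shown for that contrast (RefSeq, GRCm38.p6, 5′ to 3′ on the strand of the gene, no part capitalised).
Pld4 (chr12:112760405-112760654, plus strand): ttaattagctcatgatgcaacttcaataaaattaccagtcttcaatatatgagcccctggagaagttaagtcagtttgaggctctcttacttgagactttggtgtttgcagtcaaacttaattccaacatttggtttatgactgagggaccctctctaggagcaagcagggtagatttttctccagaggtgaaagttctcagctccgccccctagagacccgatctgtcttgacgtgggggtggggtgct
Pld3 (chr7:27553219-27553468, minus strand): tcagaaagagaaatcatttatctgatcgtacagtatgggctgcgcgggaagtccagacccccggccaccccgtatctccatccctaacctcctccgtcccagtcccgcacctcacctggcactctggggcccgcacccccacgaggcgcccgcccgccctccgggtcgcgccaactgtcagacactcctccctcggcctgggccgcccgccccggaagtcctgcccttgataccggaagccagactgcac
The Pld4 stretch had a GC content of 45.2% and 3 CG dinucleotides, and the Pld3 stretch 66.4% and 20. Over the whole 300-base window, Pld4 had the lowest GC content of the 37 genes, 46.7%, where their median was 57.0% and that of all genes 52.7%. The letters GAGGAAGT, a run that the myeloid ETS factor encoded by Spi1 can bind, were searched on both strands. They were in the windows of 4 of the genes (Pld4, Gusb, Ppt2 and Gla), 10.8% beside 3.69% of all genes, and the Pld4 site lies just after its start, shown here with these letters in capitals.
Pld4 site (chr12:112760654-112760681, plus strand): tcagaacaaaGAGGAAGTgaatggaagg
Pld4 and Gusb were among the genes with the largest rises and Gla was lower, so the letters also occurred on both sides. The shorter run GGAAGT within these letters is also in the Pld3 stretch above. Whether the letters or the GC content relate to the levels was not tested.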

How the data were processed

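For this comparison the authors deposited raw counts per gene in 1 table, without normalization, and the 10 columns were matched to the samples by name. The submitters' processing notes name CASAVA, HISAT2 2.2.1, featureCounts 2.0 and GRCm39 (mm39), but not what each was used for. None of strandedness, treatment of multimapping reads or gene annotation is given in the sources used here. All samples carry the same batch label. Gene lengths come from the same table.

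Low genes were removed with filterByExpr, leaving 18969. Counts were scaled with TMM, and edgeR 4.0.16 (R 4.3.3, limma 3.58.1) was used to fit a quasi-likelihood model with a single group term to all libraries. Benjamini-Hochberg adjustment ran over every gene tested, with a threshold of 0.05. The SE was taken as the log2 difference over the square root of F. Within-library ratios used counts + 0.5 per length and an exact two-sided permutation test. The alternatives were DESeq2 1.42.0, limma-voom, other scalings, filters and gene sets, a replicate block and left-out libraries. The fit was also run on counts simulated from the bulk brain means, with few genes changed. Such counts do not test the scaling between groups as unlike as these. Levels, ratios and plots were made in Python 3.11.15 (SciPy 1.17.1, pandas 2.3.3, matplotlib 3.10.9).

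The members, lists, pairs and tests were chosen with earlier results of these data known. Levels by library are given for the largest and smallest difference of each class, for genes that were lower or did not pass and for genes in a pair. Outside the members, genes are named from the sorting and regulator lists by their largest and smallest difference, from the other hydrolases as the lower gene, and from overlapping genes where these held over 20% of a member's counts. Markers are given by list, and those named singly were chosen after their values were seen. 1 list member and the pair that holds it are not reported here. M6pr, Spi1 and the promoter motifs were added after the levels were seen. Limits for counts of 0 cover counting error only, as the reads carry no molecular identifiers.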

Additional observations from a re-analysis of the deposited data

Results flagged for a closer look

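Among 102 groups of 5 libraries (the level of each gene and the log2 ratio of each pair, in each group), 4 had a library far from the other 4 by Dixon's test, where chance flags about 1 in 20 groups. The level of Glb1 in microglia was 81.4 CPM in replicate 2 and 71.7 to 72.5 CPM in the others. The level of Ppt2 in bulk brain was 17.9 CPM in replicate 2 and 6.55 to 9.01 CPM in the others. The log2 ratio Ppt2/Ppt1 in bulk brain was -1.74 in replicate 2 and -3.44 to -3.01 in the others, and the log2 ratio Glb1/Ctsa in microglia was -2.89 in replicate 2 and -3.06 to -3.01 in the others. Each pair of flags shares a gene and a library and is not independent.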

How the results depend on the processing

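The counts of 33 genes higher and 7 lower ranged from 32 to 34 and from 6 to 7 over 22 alternatives. The counts over all genes stayed within 1.5 times of the main ones, at 5756 to 7649 higher and 6837 to 12197 lower, the last with no low-count filter. Calls of single genes changed for Gnptab and Ppt2, as given above, and Hgsnat passed with coding genes alone (0.24, edgeR adjusted p = 0.017). Hgsnat turned negative with median-of-ratios scaling (-0.048, also with DESeq2), library size alone (-0.065), no low-count filter (-0.052), bulk brain replicates 3 to 5 (-0.023) and without bulk brain replicate 2 (-0.04, the lowest with 1 library left out, where the highest was 0.164). These scalings moved the median of all genes from -0.14 to -0.31 and -0.33. Upper-quartile scaling moved it to -0.07. Among values with no test, the bulk brain percentage of Man2b1 ran from 3.19% to 3.80% and the bulk brain percentage of Plbd2 from 70.8% to 84.6% with other scalings, by more than 1 SD. With a pseudocount of 1, every pair reported kept its side of the threshold.

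The log2 ratio of Gnptg/Gnptab was 0.44 against bulk brain replicates 3 to 5 and -0.26 to 0.18 with 1 library left out, positive without bulk brain replicate 1 (0.035) or 2 (0.176). The log2 ratio of Ppt2/Ppt1 was -0.61 to -0.18 with 1 library left out. It passed the threshold without microglia replicate 1 (-0.54, exact permutation, adjusted p = 0.036), and the cause was not tested. The replicate block gave 33 genes higher and 7 lower, and 6858 and 8037 over all genes. The labels do not say whether equal numbers in both groups mark the same animal, so the numbers were not treated as pairs. Deviations of equally numbered libraries correlated at -0.02 to 0.01, which cannot exclude pairing between RNA sources as unlike as these. The block changed no call of a gene.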

Other observations

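The genes lay on 17 chromosomes. Chromosome 8 held 7 of the 42 (16.7%), beside 4.71% of all coding genes in the table. These were Man2b1, Pla2g15, Dnase2a, Asah1, Aga, Galns and Hgsnat, which act on 5 kinds of substrate and whose log2 differences ran from 0.12 to 4.90. Dnase2a (85635189 to 85649544) and Man2b1 (85809899 to 85824911, both GRCm39, plus strand) lie 160 kb apart, and both were higher in microglia, with log2 differences of 4.24 and 4.90. No test was made of this clustering.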
